A study of Mus musculus with 6 samples.

Results

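The cyclins and the cyclin-dependent kinases (Cdks) were followed in testis RNA of wild-type (WT) and Trf2-/- mice. Members were taken by name and annotation alone, as protein-coding genes whose symbol is Ccn with 1 letter and an optional number, or Cdk with a number, which gave 42 of the 26743 genes in the table, 24 cyclins and 18 Cdks. The rule itself uses no expression value, although earlier results of these data were known when it was set. RNA was sequenced from whole testes of males at postnatal day 21, 3 WT and 3 constitutive Trf2-/- animals, described as independent biological replicates in the study's methods. Trf2, listed under its gene symbol Tbpl1, encodes a relative of the TATA-binding protein. The study bred its mice on a 129/SvPas background, and the design text names no treatment.

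Cyclins are regulatory subunits that bind and switch on Cdks, and the pairing of the partners sets which proteins are phosphorylated and when. D-type cyclins with Cdk4 and Cdk6 act in G1, E-type cyclins with Cdk2 at entry into S phase, and A- and B-type cyclins with Cdk1 or Cdk2 in G2 and at division, while another set of cyclin-Cdk pairs phosphorylates RNA polymerase II or belongs to the Mediator and splicing machinery. In the male germ line cyclin A1, encoded by Ccna1, is made in late meiotic prophase, and male mice without it are sterile because spermatocytes do not enter the meiotic divisions.

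The 6 libraries held 15187062 to 29859347 counts on genes, with the shallowest being that of Trf2-/- mouse 3, and levels are given as CPM, the counts of a gene brought to a common library size by edgeR with TMM scaling. All 42 members were among the 16924 genes with enough counts to be tested. Tbpl1 fell in Trf2-/- testes from 308, 283 and 294 CPM in WT mice 1 to 3 to 62.9, 64.3 and 55.8 CPM in the 3 Trf2-/- mice, a log2 change of -2.27 (SE 0.06, adjusted p = 1.2e-06 in edgeR's quasi-likelihood test with Benjamini-Hochberg adjustment), so the labels and the inactivated gene matched. Germ cell, Sertoli, Leydig and peritubular markers of the labelled tissue were detected, and T cell markers summed to 1.33 to 3.49 CPM. Among 8 listed round spermatid markers 7 were tested and 5 fell in Trf2-/- (median log2 change -1.57), against 20.2% of all tested genes. Summed levels of the 8 were 67.2 to 70.9 CPM in WT and 29.3 to 44.4 CPM in Trf2-/-. Acr alone gave 54.5 to 59.7 CPM of this in WT and 23.4 to 36.1 CPM in Trf2-/-, a log2 change of -0.85. The other markers called, Acrv1, Spaca3, Tssk2 and Izumo1, rested on few counts, with WT means of only 0.802 to 1.29 CPM. The median above is the value of Izumo1. Spaca1 and Tssk6 were not called (log2 changes -0.22 and -0.42), and the acrosomal genes Acrv1 and Spaca3 had 0 counts in Trf2-/- mouse 3. Summed spermatocyte markers overlapped between genotypes, at 5102 to 5416 CPM in WT and 5014 to 5230 CPM in Trf2-/-, but this sum joined opposite changes. Sycp1, Sycp3 and Hormad1, genes of the meiotic chromosome axis and synapsis, rose (log2 changes 0.29, 0.24 and 0.17). Piwil1 and Hspa2, genes of later spermatocytes, fell (-0.25 and -0.17). Of the 3 without a call, Sycp2, also a gene of the axis, had -0.10 (edgeR adjusted p = 0.0972), Spo11 -0.002 and Mlh3 0.07. Single levels of 7 of the 8 did not overlap, against 49.2% of all tested genes. Among macrophage markers 3 of 6 rose, against 11.2% of all tested genes. Their summed levels were 154 to 183 CPM in WT and 339, 206 and 172 CPM in Trf2-/- mice 1 to 3, so that mouse 3 lay within the WT range. Fewer cells of a type and less RNA per cell cannot be told apart in whole testis, and the part of cell composition in the values below was not tested.

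Promoter sequences are shown for Ccna1, the member with the largest fall, and for Ccnb1, Ccnb2 and Cdk1, the cyclin B and Cdk1 genes that drive division, since Trf2 is a factor of the promoter machinery. Each is the 250 bases before the RefSeq transcript start on mouse build GRCm38.p6, all on the minus strand and printed 5′ to 3′ along the gene, with the CCAAT box (CCAAT or its reverse ATTGG) and the cell cycle homology region (CHR, TTTGAA or its reverse TTCAAA) in capitals.
Ccna1 (chr3:55055056-55055305): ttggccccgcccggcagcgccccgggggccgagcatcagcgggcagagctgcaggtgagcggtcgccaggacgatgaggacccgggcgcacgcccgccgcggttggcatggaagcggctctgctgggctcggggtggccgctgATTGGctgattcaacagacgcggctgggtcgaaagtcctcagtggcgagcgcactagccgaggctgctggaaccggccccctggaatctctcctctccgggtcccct
Ccnb2 (chr9:70421555-70421804): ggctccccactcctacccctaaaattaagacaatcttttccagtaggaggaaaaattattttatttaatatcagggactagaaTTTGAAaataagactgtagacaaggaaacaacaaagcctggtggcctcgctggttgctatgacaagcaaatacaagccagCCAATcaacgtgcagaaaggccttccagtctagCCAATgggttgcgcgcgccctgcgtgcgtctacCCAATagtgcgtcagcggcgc
Cdk1 (chr10:69352913-69353162): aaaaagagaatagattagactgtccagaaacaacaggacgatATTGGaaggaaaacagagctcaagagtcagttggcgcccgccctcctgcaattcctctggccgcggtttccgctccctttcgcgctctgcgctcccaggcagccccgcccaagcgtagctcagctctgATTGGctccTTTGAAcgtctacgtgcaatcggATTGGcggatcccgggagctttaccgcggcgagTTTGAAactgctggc
Ccnb1 (chr13:100786487-100786736): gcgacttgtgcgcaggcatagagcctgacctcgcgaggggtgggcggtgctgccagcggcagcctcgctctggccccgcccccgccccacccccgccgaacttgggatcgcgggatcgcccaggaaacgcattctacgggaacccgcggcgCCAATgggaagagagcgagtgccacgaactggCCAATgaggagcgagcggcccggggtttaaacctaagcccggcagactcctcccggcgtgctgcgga
The Ccna1 window held 1 CCAAT box, between 107 and 103 bases before the start, in a sequence of 71.2% G and C. The Ccnb2 window held 3 CCAAT boxes and 1 CHR, the Cdk1 window 3 and 2, and the Ccnb1 window 2 CCAAT boxes and no CHR by these letters. RefSeq promoters were matched by symbol for 33 of the 42 members, with 35 starts. The CCAAT letters were present on either strand in 17 of these 35 windows against 33.8% of all 32851 promoters in the table, and the CHR letters in 5 of 35 (Ccnb2, Ccnf, Ccni, Cdk1 and Cdk16) against 16.0%. The TATA box letters TATAAA (reverse TTTATA) were found in 1 of 35, that of Cdk6, against 12.4% of all promoters, and the palindromic cyclic AMP response element TGACGTCA in 1 of 35, that of Ccnl1, against 1.55%. None of these motifs overlaps another by its letters in the printed windows, and a match describes a window without showing that a factor binds there. The study reports Trf2 at all active promoters and holds that any contact with DNA is likely non-specific. A link between these motifs and Trf2 was not tested.

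The first question was how the family as a whole differed between genotypes. Ccna1 fell about 3-fold in Trf2-/- testes and was the only one of the 42 members past a 2-fold change. With edgeR's quasi-likelihood test and an adjusted p under 0.05 over all tested genes, 7 members fell (Ccna1, Cdk14, Ccnk, Cdk20, Cdk6, Ccnb1 and Ccnb2), or 16.7% against 20.2% of all tested genes. 5 members rose (Ccnd2, Ccng1, Cdk4, Ccna2 and Ccnl2), or 11.9% against 11.2%, and 30 did not pass. Both shares were near those of all tested genes. The 1 member past 2-fold compares with 4.9% of tested genes, and the levels of the genotypes did not overlap for 23 members, or 54.8%, against 49.2%. The median log2 change over the members was -0.01, against 0.04 over all tested genes, and 32 of the 42 lay within 0.25 of zero. Without Trf2-/- mouse 3, 7 members were lower and 4 higher, against 19.3% and 11% of all tested genes, and 10 of these members were among the original 12. With library size alone as the scaling, the median log2 change of all tested genes moved to 0.13, and 4 members were lower and 14 higher, against 15.9% and 25.2% of all tested genes.

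**Figure D1:**
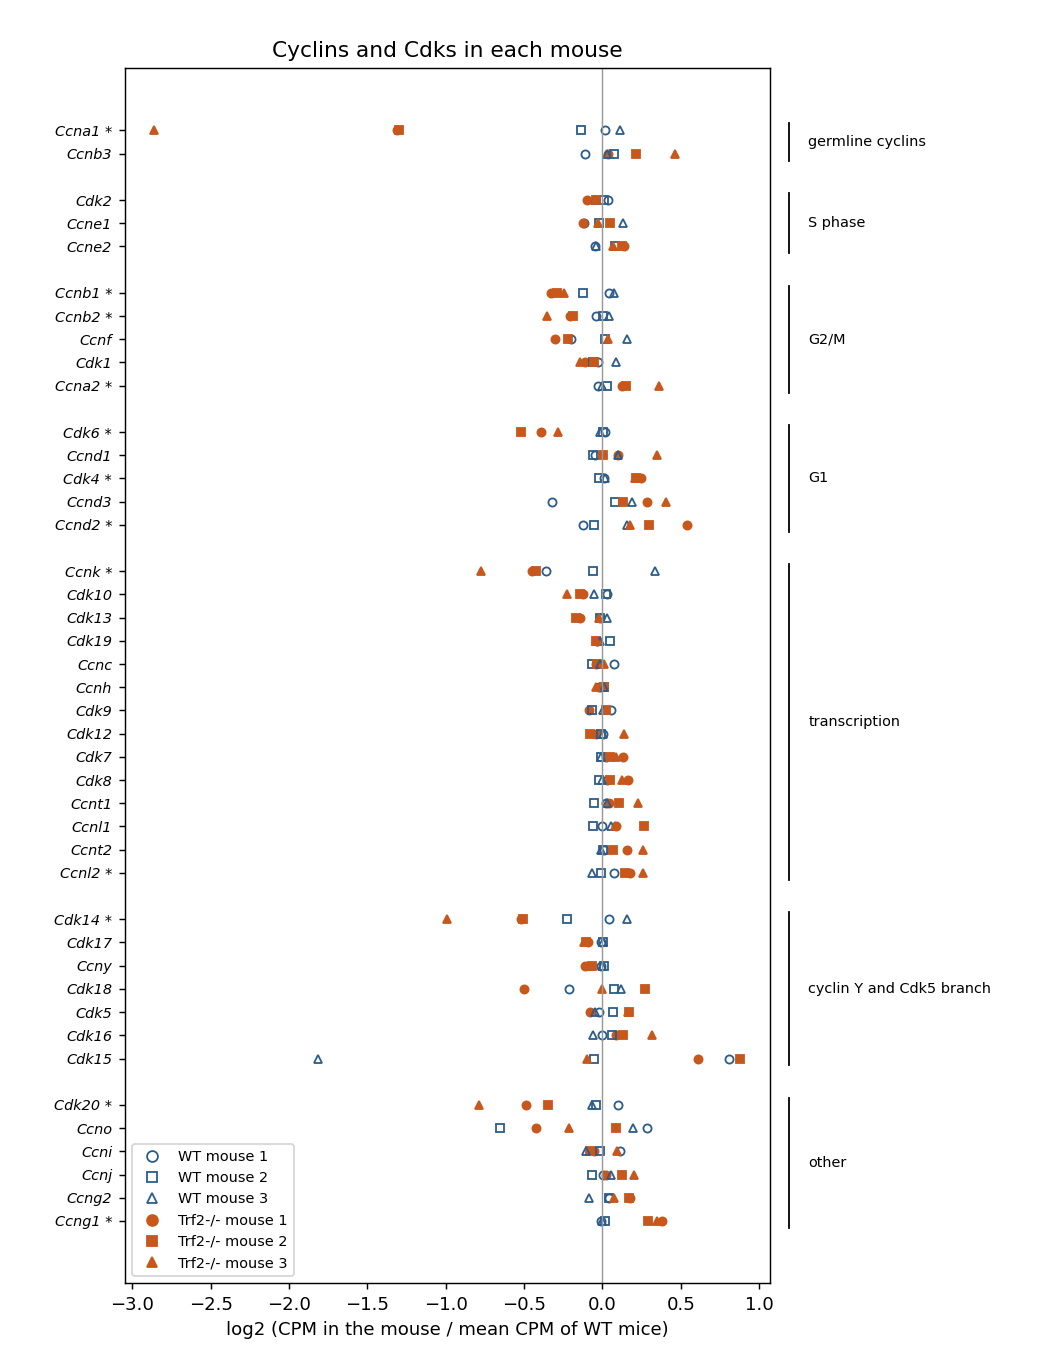
Levels of all 42 members in each of the 6 mice, drawn on the horizontal axis as log2 of the CPM in a mouse over the mean CPM of the WT mice, with genes on the vertical axis by role, open symbols for WT, filled symbols for Trf2-/- and stars on genes past an adjusted p of 0.05. Ccna1 sits far below the WT mean in all 3 Trf2-/- mice, lowest in mouse 3, while most other members stay near zero, and the low-count Cdk15 scatters within both genotypes.

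Ccna1 lies on mouse chromosome 3 (ENSMUSG00000027793, NCBIM37 54849391 to 54858977, minus strand). It had 80.6, 72.6 and 86.4 CPM in WT mice 1, 2 and 3, and 32.2, 32.4 and 11 CPM in Trf2-/- mice 1, 2 and 3, from 2314, 1896 and 1801 counts and from 811, 756 and 174 counts. Every Trf2-/- mouse was below every WT mouse, Trf2-/- mice 1 and 2 were nearly equal, and mouse 3 was lower than both. The means were 79.9 ± 6.92 CPM in WT and 25.2 ± 12.3 CPM in Trf2-/- (SD, n = 3 each), and the fitted level was 3.10-fold higher in WT (log2 change -1.63, SE 0.30, edgeR adjusted p = 0.00362). Without Trf2-/- mouse 3 the log2 change was -1.30 with an adjusted p of 9.4e-06, and over all single-mouse omissions it ran from -1.84 to -1.30 with edgeR adjusted p up to 0.0177. Trf2-/- mouse 3 was also the lowest of its group for 75.2% of the 3423 genes that fell, and for 5 of the 7 members that fell.

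The other cyclin expressed mainly in germ cells, Ccnb3, the B-type cyclin of early meiotic prophase, did not pass the test. It had 36.1, 41.1 and 39.9 CPM in WT and 40.0, 45.2 and 53.8 CPM in Trf2-/- (log2 change 0.24, edgeR adjusted p = 0.107). The Trf2-/- mice spanned a range that began within that of the WT mice, and the sign of its change was opposite to that of Ccna1. Its log2 change ran from 0.13 to 0.32 over the single-mouse omissions, and it passed as higher without Trf2-/- mouse 1 (0.32, edgeR adjusted p = 0.0344, range 0.0344 to 0.294) and with library size alone as the scaling (0.34, edgeR adjusted p = 0.0340).

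In the G2 and division group, which holds Ccna2, Ccnb1, Ccnb2, Ccnf and Cdk1, 2 of 5 members fell and 1 rose (median log2 change -0.16), where 20.2% of all tested genes fell and 11.2% rose, and 5 genes are too few to set apart from these shares. Ccnb2, a B-type cyclin and the most abundant member of all by length, had 130, 134 and 137 CPM in WT against 116, 118 and 104 CPM in Trf2-/- (log2 change -0.25, SE 0.06, edgeR adjusted p = 0.0103). Ccnb1, the B-type cyclin required for division, had 30.7, 27.4 and 31.5 CPM in WT against 23.8, 24.4 and 25.2 CPM in Trf2-/- (log2 change -0.29, SE 0.07, edgeR adjusted p = 0.0160). For both B-type cyclins the 3 Trf2-/- mice lay below the 3 WT mice, and the fitted levels decreased by 15.7% for Ccnb2 and decreased by 18.1% for Ccnb1. Scaled by library size alone, both missed the threshold (log2 change -0.15 with edgeR adjusted p = 0.0501 for Ccnb2, -0.19 with 0.0587 for Ccnb1), and Ccnb1 also missed it without WT mouse 1 (0.0642) or WT mouse 3 (0.0610). Ccna2, the other A-type cyclin, moved the other way, with 40.2, 41.7 and 40.9 CPM in WT against 44.8, 45.5 and 52.5 CPM in Trf2-/- (log2 change 0.21, SE 0.07, edgeR adjusted p = 0.0484). All Trf2-/- mice were above all WT mice, but its adjusted p stood just under the threshold and exceeded it in 5 of the 6 single-mouse omissions, where the edgeR adjusted p ran from 0.0453 to 0.141. Cdk1, the kinase partner of these cyclins, did not pass, with 81.1, 79.1 and 87.5 CPM in WT against 76.5, 79.6 and 74.7 CPM in Trf2-/- (log2 change -0.10, edgeR adjusted p = 0.201).

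**Figure D2:**
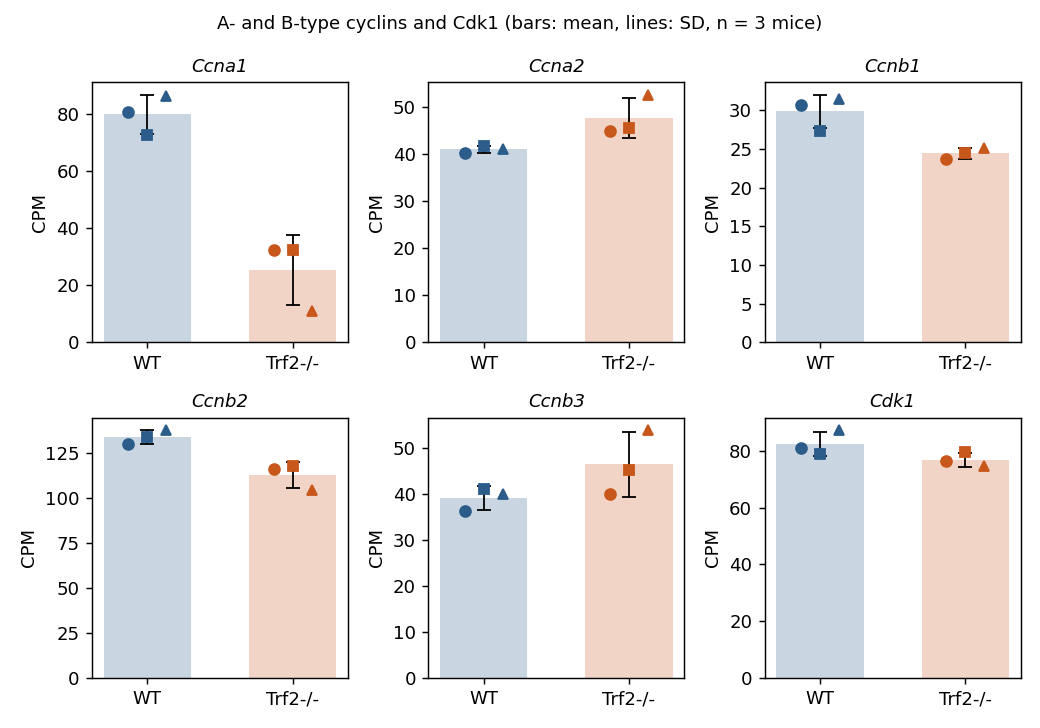
Levels of the A- and B-type cyclins and Cdk1 in CPM (vertical axes) by genotype, with bars for the mean, lines for the SD (n = 3) and 1 point per mouse. The Ccna1 points separate by far more than those of the other genes, with 72.6 CPM as the lowest WT value and 32.4 CPM as the highest Trf2-/- value.

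Ccna1 was also set against its relatives and partners within each mouse, as the ratio of their raw counts, which needs no scaling between libraries. Ccna1 stood at 2.01, 1.74 and 2.11 times Ccna2 in WT and at 0.719, 0.713 and 0.209 times Ccna2 in Trf2-/-, not divided by gene length. The ratio was above 1 in each WT mouse and below 1 in each Trf2-/- mouse. The difference in mean log2 ratio (Trf2-/- minus WT) was -2.03, and without 1 mouse at a time it ran from -2.33 to -1.44. Against Cdk1 the ratio was 0.995, 0.918 and 0.988 in WT and 0.420, 0.407 and 0.147 in Trf2-/- (log2 difference -1.72). The difference was -1.76 against Cdk2 and -1.54 against Ccnb1. All these ratios share Ccna1 as numerator, so they restate its fall against different genes and are not separate observations.

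The ratios of 7 other cyclin-Cdk pairs differed by far less. Ccnb1 to Cdk1 was 0.379, 0.346 and 0.360 in WT and 0.311, 0.307 and 0.337 in Trf2-/- (log2 difference -0.19). The log2 differences were -0.27 for Ccny to Cdk16, -0.13 for Ccnc to Cdk8, -0.10 for Ccnh to Cdk7, 0.03 for Ccne1 to Cdk2, 0.07 for Ccnd3 to Cdk4 and 0.13 for Ccnt1 to Cdk9. For 8 of the 11 ratios, those with Ccna1 among them, the genotypes did not overlap, where 49.2% of single tested genes did not and no share over other gene pairs was computed. Each of these 8 had p = 0.1 in a two-sided exact permutation test, the smallest p that 3 against 3 mice allow, or 0.138 after Benjamini-Hochberg adjustment over the 11, so that the design cannot separate them by this test. The ratio differences without a single mouse kept their sign for all pairs but Ccnd3 to Cdk4 and Ccne1 to Cdk2.

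**Figure D3:**
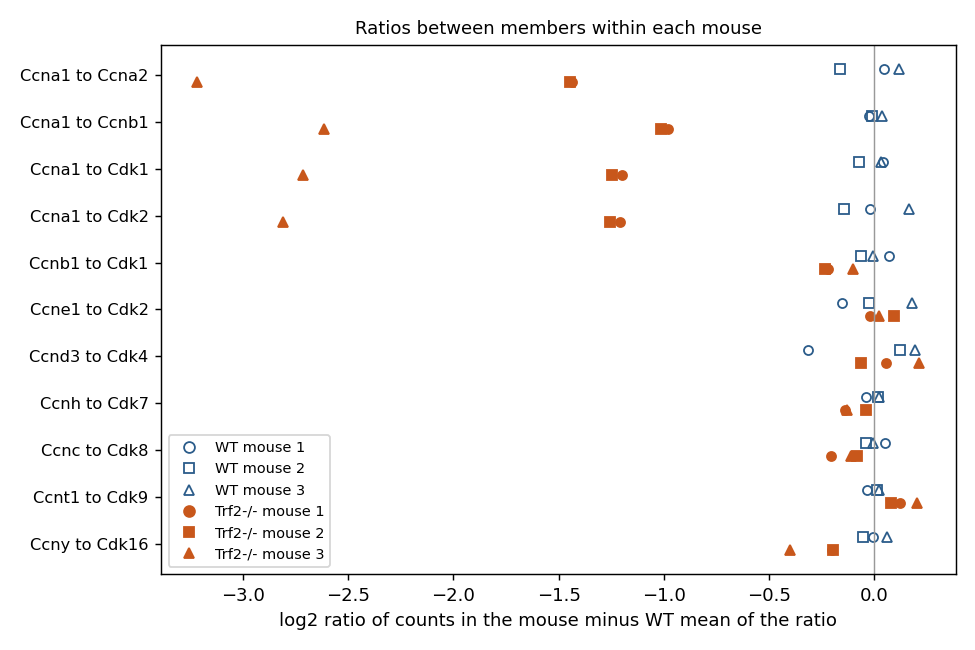
Log2 ratio of the counts of 2 members in each mouse minus the WT mean of that ratio (horizontal axis) for the 11 pairs, with open symbols for WT mice and filled symbols for Trf2-/- mice. The 4 pairs with Ccna1, which all share its counts, have mean differences of -2.03 to -1.54, and those of the other 7 lie between -0.27 and 0.13.

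The S phase members showed no call in 3 of 3, where 20.2% of all tested genes fell and 11.2% rose. Cdk2, the kinase of cyclins E and A, had 159, 156 and 150 CPM in WT and 144, 150 and 150 CPM in Trf2-/- (log2 change -0.06, edgeR adjusted p = 0.291), so the genotypes touched. The log2 changes of its E-type partners were -0.03 for Ccne1 and 0.11 for Ccne2.

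Among the G1 members 2 of 5 rose and 1 fell (median log2 change 0.22), against 11.2% and 20.2% of all tested genes, again too few members to set apart from these shares. Cdk4, the catalytic partner of D-type cyclins, had 81.3, 79.4 and 81.6 CPM in WT and 95.6, 93.6 and 93.2 CPM in Trf2-/- (log2 change 0.22, SE 0.04, edgeR adjusted p = 0.00593). Its exons overlap those of Tspan31 on the opposite strand over 18.6% of their length, and Tspan31 itself had a log2 change of 0.13 (edgeR adjusted p = 0.391). Ccnd2, a D-type cyclin found in spermatogonia, had 20.7, 21.8 and 25.2 CPM in WT and 32.8, 27.7 and 25.5 CPM in Trf2-/- (log2 change 0.35, SE 0.11, edgeR adjusted p = 0.0357). The lowest Trf2-/- mouse was barely above the highest WT mouse, and without Trf2-/- mouse 1 the log2 change was 0.23 with an edgeR adjusted p of 0.139, the highest of 4 omissions that lost the call (WT mice 1 and 2, Trf2-/- mice 1 and 2), within a range of 0.0112 to 0.139. Cdk6, the second kinase of D-type cyclins, went the other way from Cdk4, with 11.2, 11 and 10.9 CPM in WT against 8.41, 7.68 and 9.04 CPM in Trf2-/- (log2 change -0.40, SE 0.10, edgeR adjusted p = 0.0165). Both kinases kept the genotypes apart in all mice, although the edgeR adjusted p of Cdk6 was 0.0565 without WT mouse 1 and 0.0595 without WT mouse 2. The summed Sertoli markers were 1501 to 1600 CPM in WT and 1696 to 1852 CPM in Trf2-/-, with 2 of 5 higher (Clu and Amh). Clu alone gave 1044 to 1165 CPM of this in WT and 1226 to 1373 CPM in Trf2-/-. Amhr2, Sox9 and Wt1 were not called (log2 changes 0.03, 0.28 and 0.18). Spermatogonial markers summed to 248 to 265 CPM in WT and 256 to 341 CPM in Trf2-/-, with 1 of 7 higher. The part of both marker lists in the G1 values was not tested.

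The 14 transcriptional members, which pair with RNA polymerase II, Mediator or splicing factors, held 1 that fell and 1 that rose, with a median log2 change of -0.00. Of all tested genes 20.2% fell and 11.2% rose. Ccnk, the partner of Cdk12 and Cdk13, which phosphorylate the tail of RNA polymerase II, had 51.9, 63.8 and 84.1 CPM in WT and 48.8, 49.7 and 38.9 CPM in Trf2-/- (log2 change -0.53, SE 0.16, edgeR adjusted p = 0.0365). The WT mice differed widely among themselves, and the lowest WT mouse was only just above the highest Trf2-/- mouse. Without WT mouse 3 its log2 change was -0.33, with an edgeR adjusted p of 0.0951, and over the single-mouse omissions the adjusted p ran from 0.0143 to 0.0951, passing the threshold only without WT mouse 1. Ccnl2, a cyclin tied to splicing, had 126, 119 and 115 CPM in WT and 136, 132 and 144 CPM in Trf2-/- (log2 change 0.19, SE 0.05, edgeR adjusted p = 0.0246). All Trf2-/- mice were above all WT mice, by a small step, and the edgeR adjusted p was 0.0928 without WT mouse 2, 0.0924 without WT mouse 3 and 0.0643 without Trf2-/- mouse 1. The 13 transcriptional members other than Ccnk spanned log2 changes of -0.16 to 0.19.

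In the group of cyclin Y and the Cdks near Cdk5, whose known roles lie mostly outside the division cycle, 1 of 7 fell, against 20.2% of all tested genes. Cdk14, a cyclin Y-dependent kinase of Wnt signalling, had 29.4, 24.4 and 31.8 CPM in WT and 19.9, 20.1 and 14.3 CPM in Trf2-/- (log2 change -0.64, SE 0.14, edgeR adjusted p = 0.00850), the largest fall after Ccna1. The 3 Trf2-/- mice lay below all WT mice, again with mouse 3 lowest, and without that mouse the log2 change was -0.50. Its activator Ccny did not pass, at 167, 169 and 168 CPM in WT and 155, 161 and 159 CPM in Trf2-/- (log2 change -0.09, edgeR adjusted p = 0.133).

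Of the 6 remaining members 1 fell and 1 rose, against 20.2% and 11.2% of all tested genes. Cdk20, a kinase linked to cilia, had 67.8, 61.6 and 60.5 CPM in WT and 45.2, 49.7 and 36.6 CPM in Trf2-/- (log2 change -0.52, SE 0.10, edgeR adjusted p = 0.00527). Ccng1, cyclin G1, a p53 target gene, had 40.4, 41.1 and 40.6 CPM in WT and 52.9, 49.8 and 51.8 CPM in Trf2-/- (log2 change 0.34, SE 0.05, edgeR adjusted p = 0.00175). For both genes the genotypes were apart in all mice, and Ccng1 had the tightest WT values of the pair. Ccni, cyclin I, had 149 to 173 CPM in WT and 152 to 171 CPM in Trf2-/-, a log2 change of -0.01 (edgeR adjusted p = 0.897).

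Levels between genes were compared as CPM per kilobase of the deposited gene length. In WT testes the order was led by Ccnb2 at 86.8 ± 2.43, then Cdk2 at 63.6 ± 1.84, Ccna1 at 51.0 ± 4.42 and Ccni at 50.6 ± 3.87 CPM per kb (SD, n = 3), and Ccna1 and Ccni did not differ beyond their spread. In Trf2-/- testes Ccnb2 and Cdk2 still led, at 73.1 and 60.9 CPM per kb, and Ccna1 stood at 16.1 ± 7.85 CPM per kb, below Ccni at 50.2. By the deposited length, Cdk4 was the most abundant G1 member in WT (33.6 CPM per kb), Ccnl2 the most abundant transcriptional member (43.8) and Ccny that of its group (41.8). At the low end, named after their values were seen, were Ccno at 1.25, Cdk18 at 0.479 and Cdk15 at 0.270 CPM per kb. The deposited length equalled the union of annotated exons for 26 of the 42 members and was shorter for the rest. With the union of exons as the length, an alternative chosen after seeing the data, the leading 4 members kept their order and 6 of the 7 roles kept their most abundant member, but Ccnl2 stood at 22.8 CPM per kb, below Cdk13 at 35.7, and Cdk4 at 24.9.

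**Figure D4:**
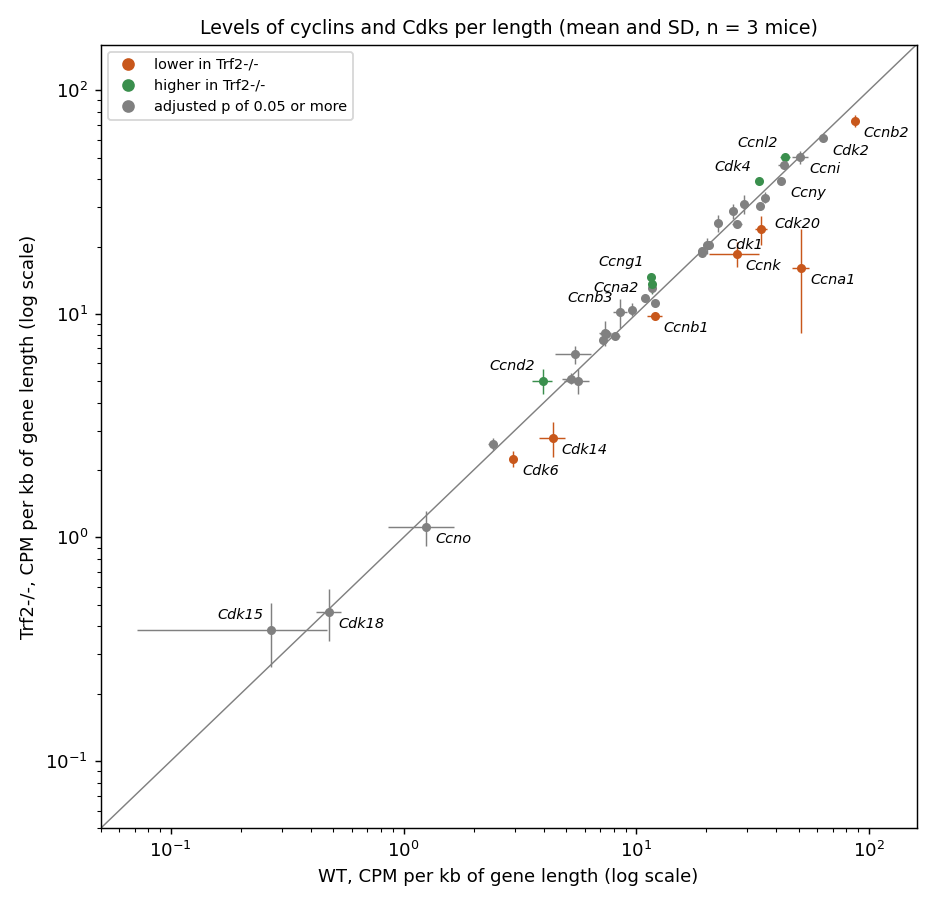
Mean level per gene in WT (horizontal axis) against Trf2-/- (vertical axis) in CPM per kilobase on log scales, with lines for the SD over 3 mice, colours for genes lower, higher or without a call and the diagonal marking equal levels. Ccna1 lies furthest below the diagonal, at 51.0 in WT and 16.1 in Trf2-/-, followed on that side by Cdk14, Ccnk, Cdk20 and Cdk6, whose fitted levels decreased by 35.8%, 30.7%, 30.5% and 24.3%.

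The regulators of Cdk activity outside the name rule were read from a list of 47 genes, of which 46 were tested. Of these, 13 fell, or 28.3%, against 20.2% of all tested genes, 3 rose, or 6.52%, against 11.2%, and the median log2 change was -0.04. None passed 2-fold, against 4.9% of tested genes in either direction, but Cdkn2c was just under it at a log2 change of -0.97 and past it without Trf2-/- mouse 1 (-1.01) or mouse 2 (-1.06). By kind, 3 of 9 Cdk inhibitors fell, 2 of 5 Cdc25 phosphatases and inhibitory kinases, 3 of 7 activators and assembly factors, 2 of 6 cyclin destruction factors, 2 of 11 retinoblastoma and E2F family members and 1 of 5 partners of transcriptional Cdks. The genes that rose were 2 of the 5 partners of transcriptional Cdks, a kind with a median log2 change of 0.16, and 1 of the 7 activators and assembly factors.

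The 3 that fell with the smallest adjusted p were Cdkn2c, Larp7 and E2f8. Cdkn2c, the p18 inhibitor of Cdk4 and Cdk6, had 166, 164 and 163 CPM in WT and 86.7, 93.2 and 71.1 CPM in Trf2-/- (log2 change -0.97, SE 0.09, edgeR adjusted p = 0.000310). Larp7, a protein of the 7SK particle that holds Cdk9 inactive, had 268, 262 and 259 CPM in WT and 195, 190 and 161 CPM in Trf2-/- (log2 change -0.53, SE 0.07, edgeR adjusted p = 0.000940). For both genes every Trf2-/- mouse lay below every WT mouse. E2f8, a repressor among the E2F factors, had 10.7, 9.88 and 8.92 CPM in WT and 5.79, 5.27 and 4.87 CPM in Trf2-/- (log2 change -0.88, SE 0.12, edgeR adjusted p = 0.00114).

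The 3 that rose did so by less. Hexim1, the 7SK protein that inhibits Cdk9, had 50.3, 46.5 and 40.6 CPM in WT and 56.9, 55.0 and 64.3 CPM in Trf2-/- (log2 change 0.35, edgeR adjusted p = 0.0169). It thus moved opposite to Larp7, its partner in the same particle, and Cdk9, the kinase they bind, had a log2 change of -0.01. Cks1b, a small Cdk-binding subunit, had a log2 change of 0.34 (edgeR adjusted p = 0.0324), and Med12, the Mediator subunit that activates Cdk8, one of 0.25 (edgeR adjusted p = 0.0471). Without a single mouse the edgeR adjusted p reached 0.0543 for Hexim1, 0.115 for Cks1b and 0.163 for Med12.

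**Figure D5:**
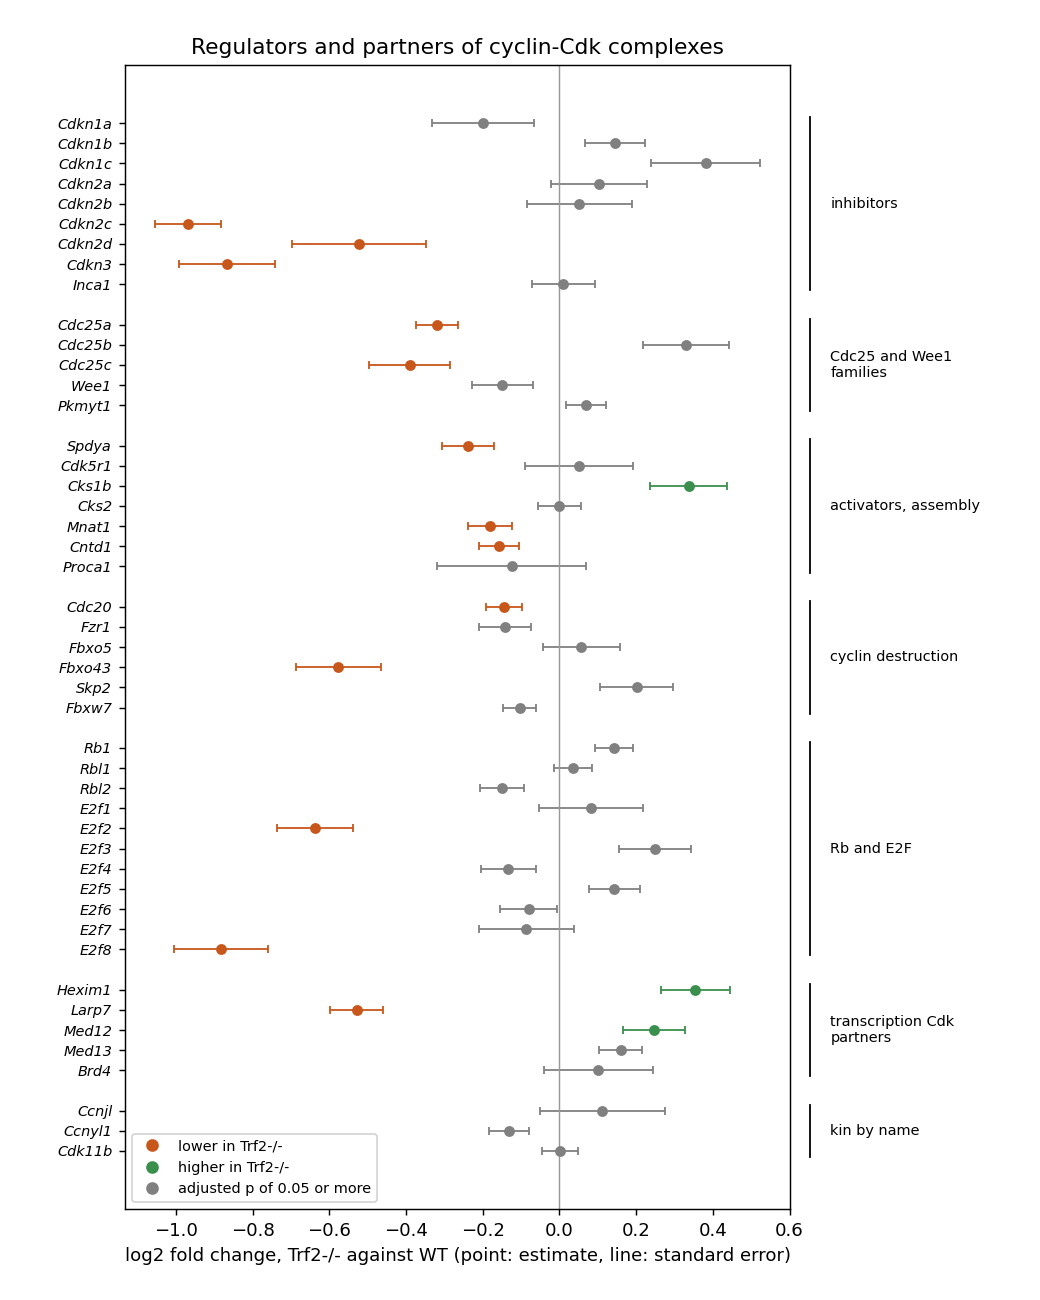
Log2 change (Trf2-/- minus WT) of the 46 tested Cdk regulators by kind, with a point for the estimate, a line for its standard error, and colours for genes lower, higher or without a call at an adjusted p of 0.05. The 13 lower genes reach -0.97 (Cdkn2c) and the 3 higher genes reach 0.35 (Hexim1).

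Of the other members that passed, on NCBIM37, Cdk14 lies on chromosome 5 (4803391 to 5420312), Ccnk lies on chromosome 12 (109424580 to 109441569), Cdk20 lies on chromosome 13 (64533850 to 64541028). On the same build, Cdk6 lies on chromosome 5 (3343893 to 3523218), Ccnb1 lies on chromosome 13 (101548605 to 101556525), Ccnb2 lies on chromosome 9 (70255496 to 70269361), Ccna2 lies on chromosome 3 (36463788 to 36471072). Among those that rose, Ccnd2 lies on chromosome 6 (127075797 to 127101066), Ccng1 lies on chromosome 11 (40562054 to 40568813), Cdk4 lies on chromosome 10 (126500590 to 126504976), Ccnl2 lies on chromosome 4 (155186598 to 155198652). Reads that a neighbouring or similar gene could share bear on some members. Exons of 13 of the 42 members overlap exons of a gene on the opposite strand, among them Ccna2 with Exosc9 (14.6% of the exon length), and Exosc9 had a log2 change of -0.10 (edgeR adjusted p = 0.176). The library kit marks strand, and whether the counting used it is not given in the sources used here. For Ccnb2, a pseudogene copy, Ccnb2-ps, held 23 to 54 counts per library, against 1653 to 3730 counts on Ccnb2 itself.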

How the data were processed

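Total RNA of whole testes was depleted of ribosomal RNA, made into stranded libraries and sequenced as single reads by the authors. The deposited table gives raw counts per gene and mouse, which the authors made on mm9/NCBI37. The submitters' processing notes name CASAVA 1.8.2, TopHat2 2.0.10, Bowtie2 2.1.0, HTSeq and DESeq2 1.0.19, and the annotation release and the strand setting of the counting are not given in the sources used here. The gene length in the deposited table was used for levels per kilobase, and 12 columns of values normalized by the authors were not used. Columns were tied to mice by genotype and number.

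Counts were fitted in R 4.3.3 with edgeR 4.0.16: filterByExpr on the 2 genotypes, TMM scaling, glmQLFit and glmQLFTest over all genes, with p-values adjusted by Benjamini and Hochberg across the 16924 genes that passed the filter and held 99.9% of all counts. A gene was called at an adjusted p under 0.05. The biological coefficient of variation was 0.0838. A floor of 3 counts, set by choice and given for scale, equals 0.105 to 0.190 CPM across the libraries. The replicates differed by more than counting noise (chi-square per degree of freedom 3.32 to 10.3 between mice of 1 genotype). Ratios within a mouse were taken on raw counts, with a two-sided exact permutation test of log2 ratios over 3 against 3 mice. The script was tested on simulated data. Gene positions come from GENCODE vM1 on NCBIM37, which gave the same coordinates as the table for all 42 members, and promoters from RefSeq on GRCm38.p6.

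Named were all members past the threshold, Ccna1, Ccna2, Ccnb1, Ccnb2, Ccnb3, Cdk1, Cdk2, the most abundant member by length of each role, the 3 regulators with the smallest adjusted p in each direction, and Tbpl1. Other genes named were partners in the ratios, neighbours on the opposite strand or genes given after their values were seen. The members and lists were chosen with earlier results of these data known. Alternatives were DESeq2 size factors, no composition scaling, DESeq2 1.42.0 with its Wald test, no filter, at least 10 counts in every mouse, a replicate block, an adjusted p of 0.01 and the omission of each mouse, with the union of annotated exons as gene length added after the data were seen.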

Additional observations from a re-analysis of the deposited data

How the results depend on the processing

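Of the 12 members called, 12 were kept with DESeq2 size factors, 12 without the filter and 12 with at least 10 counts in every mouse, and 11 with DESeq2's Wald test, which lost Ccna2. Without composition scaling (library size only) the median of all tested genes moved from 0.04 to 0.13 and the share of lower among all calls from 64.4% to 38.7%. Then 4 members were lower and 14 higher, against 15.9% and 25.2% of all genes, 7 regulators were lower and 12 higher, with Ccnk, Ccnb2 and Ccnb1 lost and 9 members gained, Ccnb3 among them. The medians by role were 0.32 for G1, -0.0646 for G2 and division, 0.0627 for S phase, 0.0508 for the cyclin Y and Cdk5 group, 0.15 for the remaining members and 0.0940 for the transcriptional members, and the log2 changes of Cdk2 (0.0306), Ccni (0.0819) and Ccny (0.0081) turned positive. At an adjusted p of 0.01, 3 members were lower and 2 higher, and 7 regulators were lower and 0 higher in edgeR, against 13.8% lower and 2.84% higher of all tested genes.

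The replicate numbers gave no sign of pairing. Same-numbered mice deviated from their genotype means with correlations of -0.097, -0.031 and -0.102, and differently numbered mice with -0.032 to 0.108. With means over 3 mice this check cannot exclude a pairing. With the replicate block 6 members were lower and 2 higher, against 18.3% and 8.78% of all tested genes, and Ccnd2, Ccnk, Ccna2 and Ccnl2 were lost.

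Leaving out 1 mouse at a time gave 5 to 7 lower and 2 to 4 higher members, 7 to 11 lower and 1 to 3 higher regulators, and role medians of 0.14 to 0.23 for G1, -0.25 to -0.0761 for G2 and division, -0.0882 to 0.0338 for S phase and -0.11 to 0.15 for the cyclin Y and Cdk5 group. Ccni ran from -0.0636 to 0.0452. Over the omissions 15.2% to 19.3% of all tested genes were lower and 4.54% to 11% higher. The fewest higher members, 2, came without WT mouse 2, where 4.54% of all tested genes were higher. Ccna1, Cdk14, Cdk20, Ccnb2, Ccng1 and Cdk4 passed under each omission, with edgeR adjusted p up to 0.0432, and Ccna1 fell by more than 2-fold in each. The cause of these shifts was not tested. The 3 mice per genotype limit the precision, and low members such as Cdk15 (0.192 to 1.24 CPM) rest on few counts.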
